A study of Mus musculus with 6 samples.

Results

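The genes described here take up glucose, break it down to pyruvate and lactate, store it as glycogen and release it again. They are 38 genes chosen by name: 3 glucose transporters, the hexokinases Hk1 and Hk2, the enzymes of glycolysis with their isoforms, the bifunctional Pfkfb enzymes, lactate dehydrogenase, the lactate transporters Slc16a1 and Slc16a3, the pyruvate dehydrogenase kinases Pdk1 and Pdk4, and 8 genes of glycogen metabolism. The array names 20659 genes, and the 38 were represented by 57 probes found through their RefSeq accession. Of the 38, 37 gave a signal well above background on every array of si-NC, of si-SYISL or of both. The exception, Phkg1, which encodes a catalytic subunit of phosphorylase kinase, was above background on 3 of 6 arrays with its brighter probe and on 0 with the other, and no level is given for it.

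The samples came from C2C12, an immortalised line of mouse myoblasts that withdraws from the cell cycle and forms multinucleate fibres in low serum. All cells were grown in medium with 10% fetal bovine serum until nearly confluent, transfected with an siRNA, and kept in 2% horse serum for 2 days. In the si-NC group the siRNA was a negative control, and in the si-SYISL group it was aimed at the long non-coding RNA SYISL. Each group had 3 single-colour Agilent arrays, and the comparison asks which genes differ once SYISL is targeted. Both groups were transiently transfected, and a single cell line was used, so nothing here was measured in muscle tissue. No probe was assigned to SYISL, so its own level was not analysed here.

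Glycolysis splits glucose in the cytosol and yields ATP without oxygen. Phosphofructokinase is its main control point, and the Pfkfb enzymes set the level of fructose 2,6-bisphosphate, which activates it. Skeletal muscle uses isoforms of its own for several steps, such as Pfkm, Pgam2 and Eno3, and it breaks down its glycogen with the phosphorylase Pygm during contraction. Many of the other genes, among them Slc2a1, Pgk1, Ldha and Pdk1, are textbook targets of HIF-1, the transcription factor of the hypoxia response.

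Replicates 1 and 3 of each group were not treated as separate measurements, although the labels list them as replicates. By their headers, replicates 1 and 2 of both groups were in the first scan, and replicate 3 of both in the second. Replicates 1 and 3 of a group share a value in the header's barcode field, read here as the array position on the slide. The deviations of single spots from their probe's mean correlated at 0.92 between them, against 0.32 to 0.55 in the 13 other pairs of arrays. They were averaged, which left 2 samples in each group, and in what follows the first value of a group is that average and the second is replicate 2. By the barcode field, the 2 si-NC arrays and the 2 si-SYISL arrays of the first scan lay at different positions. Position and group therefore cannot be told apart. The labels do not say that samples were separate cultures, so the p-values cover just the spread among these arrays, which may be technical. Between 78.2% and 90.6% of spots were well above background on each array, with the 3 si-SYISL arrays (87.9% to 90.6%) above the 3 si-NC arrays (78.2% to 84.6%), and 0 spots were saturated. The number of arrays limits the precision.

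Most of the genes had higher values in si-SYISL samples and a few had lower ones, without any passing the adjusted threshold. For 26 of the 37 the groups were apart with si-SYISL on top, meaning that its lower sample exceeded the higher si-NC sample, which held for 46.3% of all 28561 features on the array. For 5 of the 37 the groups were apart the other way, which held for 15.8% of all features. These are the genes called above and below in what follows. At an unadjusted limma p under 0.05 there were 18 genes higher and 1 lower, where the shares over all features were 16.8% and 5.85%. None passed the threshold over the whole array: limma called 0 of the 37 and 0.0% of all features at an adjusted p under 0.05, and the smallest adjusted p among the 37 was 0.0842. With each array shifted to a common median, 16 were higher and 2 lower at an unadjusted p under 0.05, beside 10.9% and 8.16% of all features, and 24 were above and 6 below, beside 33.9% and 21.3%. With quantile normalisation the counts were again 16 and 2, beside 9.54% and 8.82%. In these bulk samples, a change in the share of differentiated cells and a change in RNA per cell cannot be told apart.

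The median of all features was itself 0.16 (log2) higher in si-SYISL, and 0.03 after quantile normalisation. Differences below are therefore log2 values of si-SYISL minus si-NC with that median subtracted, given as estimate ± SE from limma with 2 samples in each group, while p-values test the difference before subtraction. Levels are log2 signals of a probe after each array was scaled to the same 75th percentile, and they are compared only between samples, never between genes. The 37 genes had a median difference of 0.23, a 1.18-fold excess, and ranged from -0.78 to 1.67. The median was 0.14 without si-SYISL replicates 1 and 3, and 0.37 without si-SYISL replicate 2. Of the 37, 21 belonged to the brightest of 4 equal groups of features. The median was 0.14 for these 21 and -0.08 for all features of that group. Of the 21, 16 were above and 2 below, beside 44.6% and 23.1% of the features of that group. The next brightest group held 12 of the genes, with 7 above and 2 below, beside 37.4% and 25.4% of its features. The group after it held 4, with 3 above and 1 below, beside 46.1% and 10.9%. Shares over all features thus differ from those of features of similar brightness.

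**Figure D1:**
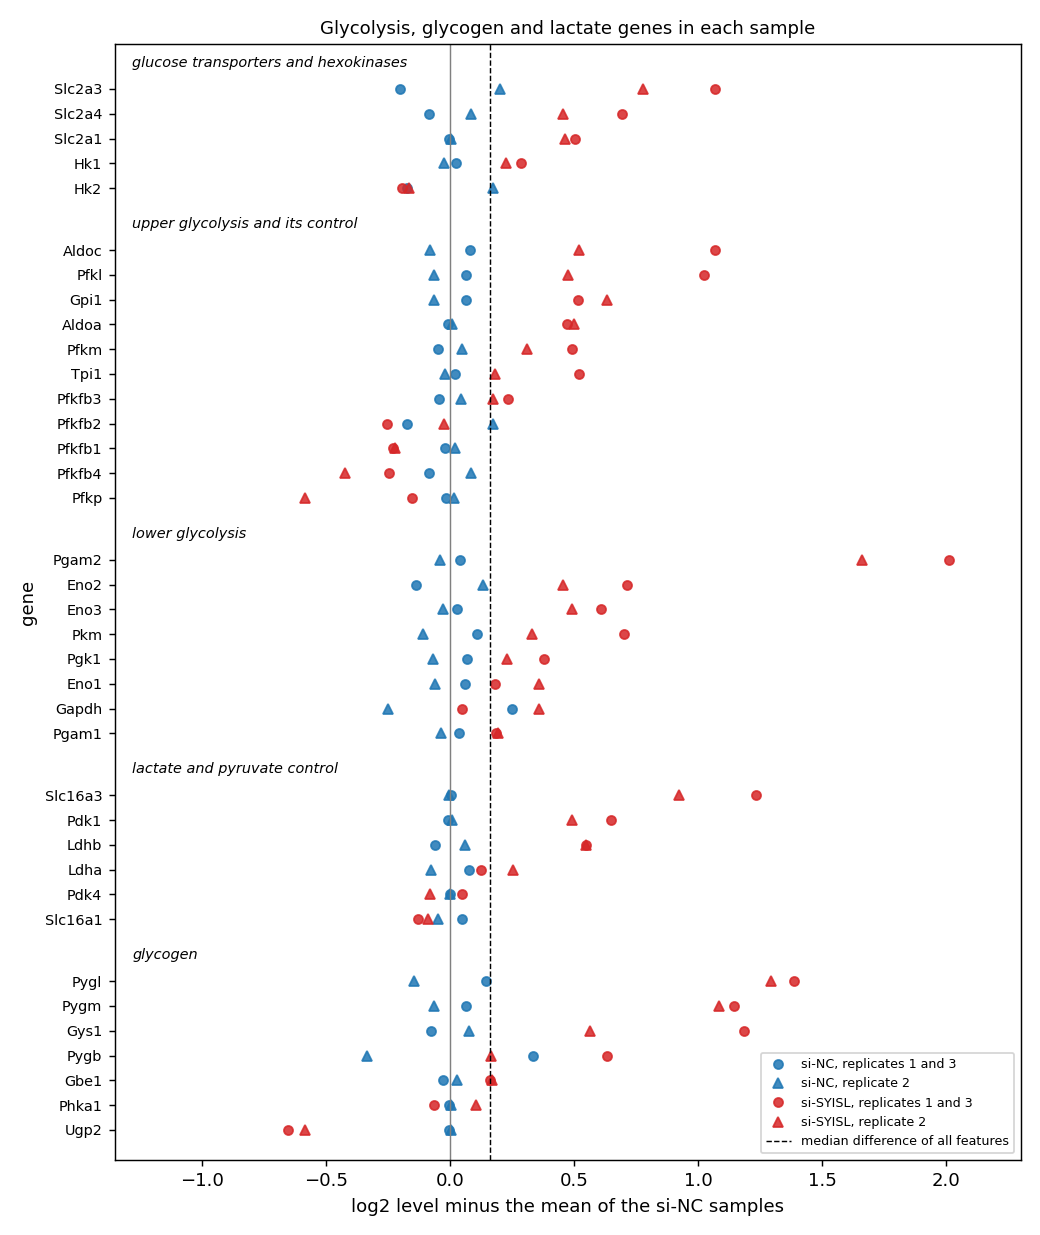
The x axis gives the log2 level of each sample minus the mean of the si-NC samples, and each row is a gene, sorted within 5 roles. Blue marks are si-NC and red marks si-SYISL samples, circles the average of replicates 1 and 3, triangles replicate 2, and the dashed line is the median difference of all features, 0.16. Red marks lie to the right of both blue marks for 26 genes, with Pgam2 farthest out, and to the left for 5, with Ugp2 farthest out.

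**Figure D2:**
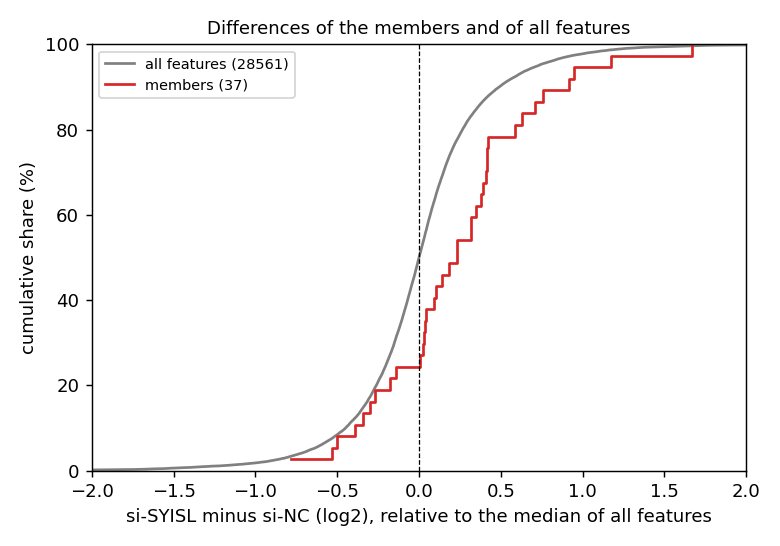
Cumulative share of genes (y axis, percent) by difference between groups (x axis, log2, relative to the median of all features) for the 37 genes in red and for all 28561 features in grey. The red curve runs to the right of the grey one over most of the range, with a median of 0.23 against 0, and comes close to it among the negative differences, whose lowest gene, Ugp2, lies at -0.78.

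The 4 largest differences belonged to a glycolytic enzyme of muscle, both muscle and liver forms of glycogen phosphorylase, and the lactate exporter of glycolytic cells. Pgam2, the muscle form of phosphoglycerate mutase, was at 8.50 and 8.42 in si-NC and at 10.47 and 10.12 in si-SYISL. Its difference was 1.67 ± 0.16 (limma adjusted p = 0.0842), or 3.18-fold, and 99.7% of all features had a difference no larger. Pygl, the liver form of glycogen phosphorylase, was at 6.69 and 6.40 in si-NC and at 7.93 and 7.84 in si-SYISL. The groups were well apart, with a difference of 1.17 ± 0.15 (limma adjusted p = 0.0889), or 2.26-fold. Over the alternatives run, the difference of Pygl ranged from 0.88, with normexp background correction, to 1.31.

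Pygm, the muscle phosphorylase, was at 11.32 and 11.19 in si-NC and at 12.40 and 12.34 in si-SYISL. Both samples of a group were close together, and the difference was 0.95 ± 0.12 (limma adjusted p = 0.0842), or 1.93-fold. Slc16a3, which exports lactate, was at 13.44 and 13.43 in si-NC and at 14.67 and 14.36 in si-SYISL. Its difference was 0.92 ± 0.15 (limma adjusted p = 0.104), or 1.89-fold, and its other probe gave 0.93. With a variance trend limma called Slc16a3 (adjusted p = 0.0181), but with normexp background correction it did not (adjusted p = 0.0561). Whether limma called Pgam2, Pygl and Pygm also depended on the setting. All 3 were called with a variance trend (adjusted p = 0.0112, 0.024 and 0.0118). With normexp background correction they were called (adjusted p = 0.0258, 0.0474 and 0.0334), and likewise without si-NC replicates 1 and 3 (adjusted p = 0.0179, 0.0195 and 0.0319), while without si-NC replicate 2 only Pgam2 was (adjusted p = 0.0447). None of the 3 was called without si-SYISL replicates 1 and 3 (adjusted p = 0.288 for each), without si-SYISL replicate 2 (0.252 for each) or with the replicate block (0.189 for each).

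The promoters of these 4 genes are shown because their differences were the largest, and they differ in the motifs they hold. The sequences are the 250 bases before the annotated start, from RefSeq on GRCm38.p6, read 5′ to 3′ on the gene's strand. Both strands were searched. Capitals mark ACGTG or GCGTG on either strand, the core of the HIF-1 element, and CAGCTG, an E-box of the kind that MyoD prefers, and in Pgam2 also a match to the MEF2 consensus. Positions count back from the start.
Pgam2, chr11:5803797-5804046, minus strand: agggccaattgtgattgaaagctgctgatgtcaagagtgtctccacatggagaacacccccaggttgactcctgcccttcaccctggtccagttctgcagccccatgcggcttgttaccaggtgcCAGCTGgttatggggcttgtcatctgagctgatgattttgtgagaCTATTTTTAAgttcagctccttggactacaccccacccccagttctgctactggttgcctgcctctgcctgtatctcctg
Pygm, chr19:6384158-6384407, plus strand: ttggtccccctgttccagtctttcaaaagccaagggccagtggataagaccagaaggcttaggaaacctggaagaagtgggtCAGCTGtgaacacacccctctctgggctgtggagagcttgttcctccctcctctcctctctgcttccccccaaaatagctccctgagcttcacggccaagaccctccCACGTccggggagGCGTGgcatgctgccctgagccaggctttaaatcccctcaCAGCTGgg
Pygl, chr12:70227684-70227933, minus strand: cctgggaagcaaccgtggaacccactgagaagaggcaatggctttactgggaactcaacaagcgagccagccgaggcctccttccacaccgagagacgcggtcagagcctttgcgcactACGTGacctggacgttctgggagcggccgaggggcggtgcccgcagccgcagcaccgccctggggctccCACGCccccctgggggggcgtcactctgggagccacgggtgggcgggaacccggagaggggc
Slc16a3, chr11:120948817-120949066, plus strand: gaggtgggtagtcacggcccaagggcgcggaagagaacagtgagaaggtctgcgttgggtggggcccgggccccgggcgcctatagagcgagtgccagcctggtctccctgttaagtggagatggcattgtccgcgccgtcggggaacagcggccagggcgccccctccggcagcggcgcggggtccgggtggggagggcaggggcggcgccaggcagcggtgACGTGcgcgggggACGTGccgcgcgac

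In Pgam2 the E-box began 125 bases and the MEF2 match 80 bases before the start, and no ACGTG or GCGTG was in the window. In Pygm both kinds were present, with CAGCTG at 168 and 8 bases and the other core at 61 and 48 bases. Pygl had matches to the HIF-1 core at 131 and 62 bases and Slc16a3 at 27 and 14 bases, and neither held CAGCTG. These are matches of letters and not shown to be bound. Of the 38 genes, 36 had a window in the RefSeq table (Slc2a3 and Slc2a4 did not), with 55 windows in all. ACGTG or GCGTG was present in 70.9% of these windows and in 38.6% of all 32851 promoter windows of that length. CAGCTG was present in 18.2% against 13.0%, and the MEF2 consensus in 3.64% against 2.92%. The genes were chosen by name and 18 of them are listed as HIF-1 targets. The share with the HIF-1 core is therefore not independent of that choice. Some windows of a gene also overlap and hold the same match. Counted per gene, with a match in any of its windows, the HIF-1 core was found for 29 of the 36 genes. It was found for 18 of the 24 genes with a window whose si-SYISL samples lay above, and for 5 of the 5 whose samples lay below. The share among genes above was thus lower than among all 36, and the share among genes below was higher, which was not tested. Genes with several windows had more chances of a match, so these counts cannot be read against the shares per window.

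The transcripts of all 3 glucose transporters lay above in si-SYISL, although none passed the adjusted threshold, while Hk1 was close to the median of all features and Hk2 overlapped. Of these 5 genes, 4 were above and 0 below, beside 46.3% and 15.8% of all features. Slc2a1 (GLUT1), the widespread basal transporter, was at 14.78 and 14.79 in si-NC and at 15.29 and 15.25 in si-SYISL. Samples of a group were nearly equal, and the difference was 0.32 ± 0.11 (limma adjusted p = 0.140). Slc2a3 (GLUT3), a high-affinity transporter, was at 6.99 and 7.39 in si-NC and at 8.26 and 7.97 in si-SYISL, a difference of 0.76 ± 0.20 (limma adjusted p = 0.136). Slc2a4 (GLUT4), the insulin-regulated transporter of muscle and fat, was at 6.71 and 6.88 against 7.49 and 7.25, a difference of 0.42 ± 0.14 (limma adjusted p = 0.152). All 3 transporters were thus apart between groups.

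Hexokinase traps glucose in the cell by phosphorylation. Hk1, its ubiquitous form, was at 15.87 and 15.82 in si-NC and at 16.13 and 16.07 in si-SYISL, but its difference relative to all features was only 0.09 ± 0.11. Hk2, the form of insulin-sensitive muscle and of many tumours, was at 12.96 and 13.31 in si-NC and at 12.94 and 12.97 in si-SYISL. Its groups overlapped, with replicates 1 and 3 of si-NC level with the si-SYISL samples, and its difference was -0.34 ± 0.16 (limma adjusted p = 0.498).

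The upper steps of glycolysis held both directions. Of 11 genes, 7 had si-SYISL above and 3 below, beside 46.3% and 15.8% of all features. Gpi1, which converts glucose 6-phosphate to fructose 6-phosphate, was at 16.42 and 16.29 in si-NC and at 16.87 and 16.99 in si-SYISL, a difference of 0.41 ± 0.12 (limma adjusted p = 0.134), with 0.28 to 0.41 over its 3 probes. The liver-type phosphofructokinase Pfkl was at 12.80 and 12.67 against 13.76 and 13.21, a difference of 0.59 ± 0.22 (limma adjusted p = 0.172). The muscle type Pfkm was at 12.86 and 12.96 against 13.40 and 13.22, a difference of 0.23 ± 0.13. The platelet type Pfkp went the other way, at 10.56 and 10.59 in si-NC and 10.42 and 9.99 in si-SYISL, a difference of -0.53 ± 0.18 (limma adjusted p = 0.284). Its second, dimmer probe gave -0.07, so the size of that difference depended on the probe.

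Of the 4 bifunctional enzymes, 3 had negative differences. Pfkfb4 was at 11.52 and 11.69 in si-NC and at 11.36 and 11.18 in si-SYISL, a difference of -0.50 ± 0.14 (limma adjusted p = 0.240). Pfkfb1 differed by -0.39 ± 0.11 and had both si-SYISL samples below, and Pfkfb2 differed by -0.30 ± 0.17 with overlapping groups. Pfkfb3, whose kinase activity far exceeds its phosphatase activity, differed by 0.04 ± 0.11. No difference is given for its dimmer probe, which was well above background on 1 of 3 si-NC arrays.

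Aldolase cleaves fructose bisphosphate into triose phosphates. Aldoa, the form of muscle, was at 16.82 and 16.84 in si-NC and at 17.30 and 17.33 in si-SYISL, a difference of 0.32 ± 0.11 (limma adjusted p = 0.140). Aldoc, known from brain, was at 11.36 and 11.20 against 12.35 and 11.80, a difference of 0.63 ± 0.22 (limma adjusted p = 0.166). Both aldolases were apart between groups, with the si-SYISL samples of Aldoc more widely spread. Tpi1, the triose phosphate isomerase, differed by 0.18 ± 0.16.

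All 8 genes of lower glycolysis had a positive difference in the fit reported. However, that of Pgam1 turned negative with quantile normalisation (-0.06) and that of Gapdh with normexp background (-0.02). Of the 8, 7 were above and 0 below, beside 46.3% and 15.8% of all features. Eno3, the muscle enolase, was at 16.13 and 16.07 in si-NC and at 16.71 and 16.59 in si-SYISL, a difference of 0.38 ± 0.12 (limma adjusted p = 0.134). Eno2, the neuronal form, was at 12.93 and 13.20 against 13.78 and 13.52, a difference of 0.42 ± 0.16 (limma adjusted p = 0.165). Eno1, the widespread form, was at 17.26 and 17.14 against 17.38 and 17.56, a difference of 0.11 ± 0.13. The ubiquitous mutase Pgam1 was at 16.99 and 16.92 against 17.14 and 17.15, and differed by 0.03 ± 0.11. It was therefore close to the median of all features, unlike its muscle counterpart Pgam2.

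Pkm, the pyruvate kinase of muscle and growing cells, differed by 0.35 ± 0.18, and the phosphoglycerate kinase Pgk1 by 0.14 ± 0.13. Gapdh was at 18.14 and 17.64 in si-NC and at 17.94 and 18.25 in si-SYISL. Its groups overlapped, its difference was 0.04 ± 0.23, and its 7 probes ranged from -0.06 to 0.16, so its sign was not settled. Gapdh and several other glycolytic genes have near-identical processed pseudogenes in the mouse, and transcripts of such copies cannot be told apart from the gene's own on a hybridisation array.

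At the exit of the pathway, the genes of lactate handling differed in direction. Ldha, the lactate dehydrogenase subunit of glycolytic tissue, was at 17.34 and 17.19 in si-NC and at 17.39 and 17.52 in si-SYISL, a difference of 0.03 ± 0.13, and 0.15 and 0.38 at its 2 dimmer probes. Ldhb, the subunit of heart and other oxidative tissue, was at 10.64 and 10.76 against 11.25 and 11.25, a difference of 0.39 ± 0.11 (limma adjusted p = 0.130). Slc16a1 (MCT1), a lactate transporter that works in both directions, was at 12.02 and 11.92 against 11.84 and 11.88. Both of its si-SYISL samples lay below, in contrast to Slc16a3, with a difference of -0.27 ± 0.11 (limma adjusted p = 0.551).

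Pdk1 and Pdk4 phosphorylate pyruvate dehydrogenase and so keep pyruvate out of mitochondria. Pdk1 was at 10.68 and 10.70 in si-NC and at 11.34 and 11.18 in si-SYISL, a difference of 0.41 ± 0.12 (limma adjusted p = 0.132). Pdk4, the form induced by fasting and fatty acids, was at 12.22 and 12.22 against 12.27 and 12.14, with overlapping groups and a difference of -0.18 ± 0.11.

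Glycogen metabolism held the widest range of differences. Of its 7 measured genes, 4 had si-SYISL above and 1 below, beside 46.3% and 15.8% of all features. Gys1, the muscle glycogen synthase, was at 10.65 and 10.80 in si-NC and at 11.91 and 11.29 in si-SYISL, a difference of 0.71 ± 0.24 (limma adjusted p = 0.163), and 0.54 at its other probe. Over the alternatives run, the difference of Gys1 ranged from 0.37 to 1.17. The si-SYISL samples of Gys1 lay farther apart from each other than those of any of the other 36 genes, by 0.62. Pygb, the brain phosphorylase, was at 9.82 and 9.15 against 10.12 and 9.65, with overlapping groups and a difference of 0.23 ± 0.30. Of the 3 phosphorylases, Pygl and Pygm had groups that did not overlap, and the difference of Pygb was -0.08 without si-NC replicate 2.

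Ugp2 makes UDP-glucose, the donor for glycogen synthesis, and it had the lowest difference of the 37. It was at 14.64 and 14.65 in si-NC and at 13.99 and 14.06 in si-SYISL, so both groups were tight and well apart. Its difference was -0.78 ± 0.11 (limma adjusted p = 0.122), or 0.581-fold relative to all features, and its other probe gave -0.49. With a variance trend limma called Ugp2 (adjusted p = 0.024). It was the only gene lower at an unadjusted p under 0.05 in the fit reported. The branching enzyme Gbe1 differed by 0.01 ± 0.11 and Phka1, the muscle regulatory subunit of phosphorylase kinase, by -0.14 ± 0.12.

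Differences between isoforms of a step were read from 14 ratios of a pair of genes within each sample, so that scaling of the array drops out. In 6 of them si-SYISL was above, in 5 below, and in 3 the groups overlapped. How often groups are apart in ratios of other gene pairs was not computed, so these counts have no background share. With 2 samples a group, an exact two-sided permutation test cannot go below 0.33, which all 11 separated ratios reached (0.424 after Benjamini-Hochberg adjustment over the 14). The log2 ratio of Pgam2 to Pgam1 was -8.49 and -8.50 in si-NC and -6.67 and -7.04 in si-SYISL, a shift of 1.64 towards the muscle form. That of Slc16a3 to Slc16a1 went from 1.42 and 1.51 to 2.83 and 2.48, a shift of 1.19. Pygm shifted by 0.72 against Pygb but by -0.22 against Pygl (0.13 with normexp background), and Pfkm by 0.77 against Pfkp but by -0.35 against Pfkl.

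Muscle forms were thus not all higher relative to their counterparts. The ratio of Eno3 to Eno1 shifted by 0.27 and that of Slc2a3 to Slc2a1 by 0.44, with groups apart. Ratios that were lower in si-SYISL, with groups apart, were Pdk4 to Pdk1 (-0.58), Hk2 to Hk1 (-0.43) and Ldha to Ldhb (-0.36). Groups overlapped for Eno2 to Eno1 (0.32), Aldoc to Aldoa (0.31) and Slc2a4 to Slc2a1 (0.10, and -0.06 with normexp background). The list of 6 measured muscle forms held Slc2a4, Pfkm, Pgam2, Eno3, Pygm and Phka1. Its median difference was 0.40, with 5 above and 0 below. The list of 9 other forms held Slc2a1, Slc2a3, Pfkl, Pfkp, Pgam1, Eno1, Eno2, Pygl and Pygb. Its median was 0.32, with 7 above and 1 below. Phka1 had no counterpart among the 9, and Aldoa and Gys1 were on neither list. The 18 genes on the list of HIF-1 targets had a median of 0.16, with 15 above and 1 below. Over all features the shares above and below were 46.3% and 15.8%. With each array shifted to a common median, 14 of the 18 were above and 2 below, beside 33.9% and 21.3% of all features.

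**Figure D3:**
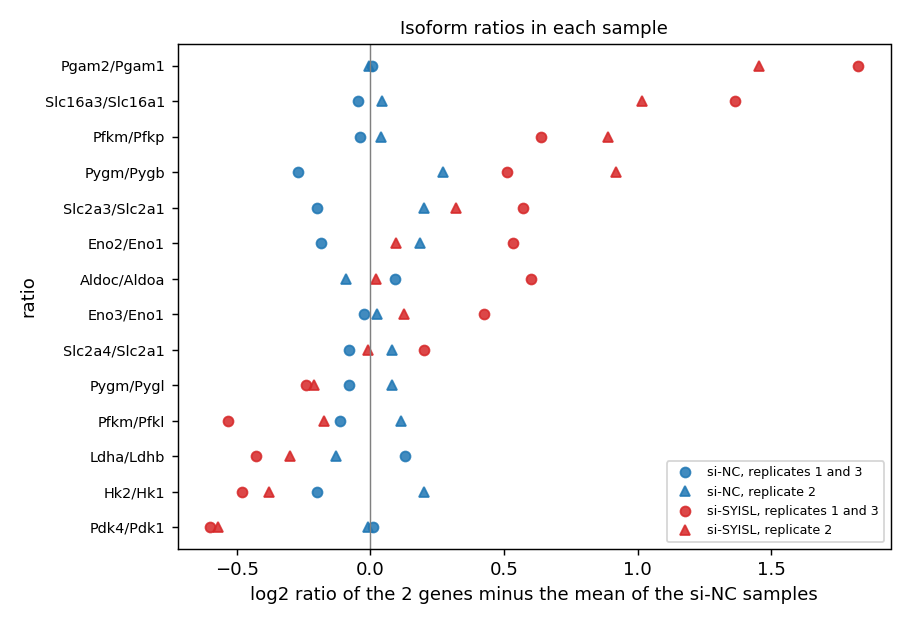
The x axis gives the log2 ratio of the 2 genes named in each row, minus its mean over the si-NC samples, with marks as in the plot of levels by sample. Ratios are sorted by the shift of the group means, from 1.64 for Pgam2/Pgam1 to -0.58 for Pdk4/Pdk1, and red and blue marks interleave in 3 rows.

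Within the si-SYISL group the samples were not level. The average of replicates 1 and 3 exceeded replicate 2 for 23 of the 37 genes and by a median of 0.09, while over all features it was higher for 35.1% with a median of -0.09. The gap was over 0.5 for 3 genes, Gys1, Pfkl and Aldoc, and for 1.87% of all features. In si-NC the corresponding median was 0.00 for the 37 genes. Relative to all features, the median level of the 37 genes around their own means was -0.09 and -0.12 in si-NC and 0.20 and 0.00 in si-SYISL.

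The wider pathway was followed with genes that are not among the 38. Of 18 other measured glycogen genes, 11 had si-SYISL above and 3 below, with a median difference of -0.01, beside 46.3% and 15.8% of all features. Those with the smallest p were the phosphorylase kinase subunit Phka2 (0.31 ± 0.13), the lysosomal glucosidase Gaa (0.23 ± 0.11) and the phosphoglucomutase family gene Pgm2 (-1.86 ± 0.50). Pgm2 was at 10.92 and 11.03 in si-NC and at 8.57 and 10.00 in si-SYISL, so the si-SYISL samples were far from each other. Of 22 other genes of glucose and lactate handling, 13 were above and 1 below, with a median of 0.13. They included the lactate dehydrogenase for D-lactate, Ldhd (0.44 ± 0.12), the transporter Slc16a7 (0.60 ± 0.15) and the glucose transporter Slc2a6 (0.35 ± 0.12). Of the 13 genes of pyruvate entry into mitochondria, 5 were above and 3 below, with a median of -0.07, and Pdk2 (0.40 ± 0.14), the phosphatase Pdp2 (-0.71 ± 0.14) and the pyruvate carboxylase Pcx (0.12 ± 0.13) had the smallest p. Limma called 0 genes of these 3 lists at an adjusted p under 0.05. At an unadjusted p under 0.05 there were 3 higher and 1 lower, 7 higher and 0 lower, and 1 higher and 1 lower. Over all features the shares were 16.8% higher and 5.85% lower.

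Markers of differentiating muscle gave values on both sides. All 15 markers of differentiating muscle were well above background on 6 arrays with at least 1 probe, and 11 of them had si-SYISL above and 1 below, with a median difference of 0.56, beside 46.3% and 15.8% of all features. Of the 15, 10 had a positive and 5 a zero or negative difference, and limma called 0 at an adjusted p under 0.05. At an unadjusted p under 0.05, 9 were higher and 1 lower, beside 16.8% and 5.85% of all features. Relative to all features, the median level of the 15 was -0.15 and -0.33 in si-NC against 0.29 and 0.15 in si-SYISL. The troponin Tnnt3 differed by 1.24 ± 0.16, the troponin Tnnt1 by 0.66 ± 0.11 and the actin Actc1 by 0.85 ± 0.14. These have the smallest p of the list. The lower one was Myod1, the myogenic determination factor, at 12.16 and 12.19 in si-NC and at 11.46 and 11.66 in si-SYISL, a difference of -0.78 ± 0.13 (limma adjusted p = 0.131). Myf5 (-0.29 ± 0.13), desmin (Des, -0.07 ± 0.29), myogenin (Myog, -0.02 ± 0.17) and Mylpf (0.00 ± 0.11) were also not positive, and these 5 were named after their values were seen. Of 8 markers of proliferating cells, 0 were above and 3 below, with a median of -0.44 and levels of 0.05 and 0.34 against 0.02 and -0.39. Cdk1 (-0.88 ± 0.15), Pcna (-0.46 ± 0.13) and Top2a (-0.55 ± 0.20) had the smallest p. Of 13 markers of other cell types, 11 were measured, with 4 above, 2 below and a median of 0.02, and levels of 0.00 and 0.04 against -0.12 and 0.07. Their smallest p belonged to Tubb3 (-1.64 ± 0.15), Mbp (0.95 ± 0.17) and Cdh1. Of the epithelial pair, Epcam was above background on at most 2 arrays and Cdh1 on 3, so no fold is given for Cdh1. Cdh1 is among the 4 above but was kept through a single group, so its separation and its p carry no weight here. The part of these markers in the results for glycolytic genes was not tested.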

How the data were processed

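RNA from 3 si-NC and 3 si-SYISL samples of C2C12 cells (1 µg each) was labelled with Cy3, per the labels' protocols. The deposited scanner files hold intensity (gProcessedSignal), which was background-subtracted and detrended within each array, per the file headers, and not normalised between arrays. They come from Feature Extraction 11.0.1.1, per the file headers, while the submitters' processing notes name 10.5.1.1. Flags per spot (unit other, deposited) gave outliers, saturation and signal well above background. The deposited series matrix holds log2 values with a median of 8.58 on each array (normalisation not given in the sources used here) and served as an alternative.

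Signals were taken to log2 and scaled to each array's 75th percentile of non-control spots. Control spots and spots marked as outliers were dropped before averaging within each probe. Gene names came through RefSeq accessions of assembly GRCm38.p6 (27234 of 39429 probes, 20659 symbols); since the design's own annotation uses a different assembly, probe coordinates are not printed. Probes had to be well above background on each of the 3 arrays of si-NC or of si-SYISL, and the kept probe with the highest mean stood for its gene (28561 features). Groups were compared with limma 3.58.1 (R 4.3.3; lmFit and eBayes, two-sided, Benjamini-Hochberg over all features), with replicates 1 and 3 averaged. Over 338 replicated probes, chi-square per probe against the spot noise was 0.212 (si-NC) and 0.167 (si-SYISL) for replicate 1 against 3, whereas other pairs gave 27.5 to 185. Exact permutation tests used scipy 1.17.1. On simulated data the fit recovered the sizes of the changes put in, but called none of them at the adjusted threshold with 2 samples a group. That simulation changed only a small part of the features and used independent normal noise. It therefore does not show what the fit could call in these data.

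The 38 genes and all lists were chosen with earlier results of these data known, so they carry no p-value of their own. Every measured member is named. Values per sample are given for the 14 with the largest differences and for genes of the isoform ratios, and each other list is represented by the 3 genes with the smallest p. Alternatives were normexp background (offset 50, on the median pixel intensity), quantile and median scaling, the series matrix, other filters and probe rules, a variance trend, 6 arrays as 6 samples, replicate and scan blocks, and leaving out each sample. Each scan on its own was added after seeing the data. Same-numbered samples did not deviate together (r = -0.03 over features), so the numbers were not taken as pairs.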

Additional observations from a re-analysis of the deposited data

How the results depend on the processing

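Of the 37 genes, 30 kept the direction of their difference under all 17 alternatives that gave one, and the 7 that did not had differences of at most 0.23 (log2) in the reported fit. Leaving out samples gave -0.19 to 0.29 for Gapdh, -0.03 to 0.06 for Gbe1, -0.03 to 0.09 for Ldha, -0.02 to 0.11 for Pfkfb3, -0.08 to 0.56 for Pygb and -0.02 to 0.40 for Tpi1. Other reversals were Gapdh at -0.02 and Gbe1 at -0.06 with normexp background, Pgam1 at -0.06 and Ldha at -0.01 with quantile normalisation and with the series matrix, Gbe1 at -0.01 with no filter and in the first scan alone, Gapdh at -0.07 with 6 arrays as 6 samples, and Gapdh at -0.28 and Ldha at -0.06 in the second scan alone. With normexp background the ratio of Slc2a4 to Slc2a1 turned to -0.06 and that of Pygm to Pygl to 0.13. The causes were not tested.

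The count called by limma at an adjusted p of 0.05 depended most on the setting. It was 187 features and 3 of the 37 genes with normexp background, 904 and 9 with a variance trend, and 83 and 1 (Pygm) with the scan block. The 9 were Aldoa, Eno3, Gpi1, Pgam2, Pygl, Pygm, Slc16a3, Slc2a1 and Ugp2. The count was 9763 (34.2% of features) and 27 with the 6 arrays as 6 samples, which counts the near-identical arrays separately. It ranged from 0 to 1380 features and 0 to 3 of the 37 when samples were left out, where the lone sample of a group is assumed to vary like the other group: 1380 and 3 without si-NC replicates 1 and 3, and 276 and 1 without si-NC replicate 2. It was 0 with all other settings that allowed a test. Genes lower at an unadjusted p under 0.05 were 2 with quantile normalisation, median scaling, the series matrix, a variance trend or the scan block, and 3 with 6 arrays. In each of these settings their share of the 37 was lower than the share of all features. With quantile normalisation it was 5.41% against 8.82%. Genes with every remaining si-SYISL sample below every remaining si-NC sample ranged from 5 to 8 without a sample, and were 8 without si-SYISL replicate 2. A group then held 1 sample, so groups were apart more easily. In each of these fits the share of the 37 lying below was lower than the share of all features. The median of the genes was 0.36 in the second scan alone (1 array a group, no test), 0.24 in the first, and 0.14 to 0.37 without a sample. With the replicate block the unadjusted counts stayed at 18 higher and 1 lower, and 0 were called. Signal over background left Phkg1 without a level and also limited the second probes of Pfkfb3 (4 of 6 arrays) and Pfkfb4 (0 of 6) and the markers Cdh1 and Epcam.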

Other observations

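The lists below had shares of genes above and below that can be read against 46.3% and 15.8% of all features. Gpd1, which turns a glycolytic intermediate into glycerol 3-phosphate in the cytosol, was at 6.68 and 6.70 in si-NC and at 7.69 and 7.60 in si-SYISL, a difference of 0.80 ± 0.11 (limma adjusted p = 0.0933). Gpd2, its mitochondrial partner in the glycerol phosphate shuttle, was at 12.20 and 12.32 against 11.72 and 11.47, a difference of -0.83 ± 0.14 (limma adjusted p = 0.135). The aspartate-glutamate carrier Slc25a13 differed by -0.70 ± 0.11. The 10 genes of NADH shuttles had a median of -0.10, with 5 above and 2 below. In the pentose phosphate pathway, which makes NADPH and ribose, Tkt differed by 0.51 ± 0.20, Taldo1 by 0.21 ± 0.12 and G6pdx by 0.07 ± 0.12, and the median of its 7 genes was -0.14, with 3 above and 1 below.

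Among 18 regulators of glycolytic genes, 8 had si-SYISL above and 4 below, with a median of -0.04. Ppargc1a, the coactivator that raises mitochondrial content, was at 9.43 and 9.81 in si-NC and at 8.48 and 8.53 in si-SYISL, a difference of -1.27 ± 0.17 (limma adjusted p = 0.110). Egln3, a prolyl hydroxylase that marks HIF-1 alpha for breakdown and is itself induced by HIF-1, was at 11.03 and 11.18 against 11.96 and 11.78, a difference of 0.60 ± 0.13 (limma adjusted p = 0.121). The alpha-arrestin Arrdc4 differed by 0.26 ± 0.15. Limma called 0 genes of these 3 lists at an adjusted p under 0.05. At an unadjusted p under 0.05 there were 2 higher and 2 lower among shuttle genes, and 2 higher and 0 lower in the pentose phosphate pathway. Among regulators there were 2 higher and 1 lower. Over all features the shares were 16.8% higher and 5.85% lower.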
